A study of Saccharomyces cerevisiae with 3 samples.

Results

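The last of 3 equal parts of 25S, its 3′ part, was examined by native elongating transcript sequencing (NET-seq) of RNA polymerase I (Pol I) in *Saccharomyces cerevisiae* lacking *HMO1*. The stretch was chosen by position alone. It holds the last 1132 of the 3396 positions of 25S, from position 5516 to position 6647, out of 6858 positions of the 35S gene, where position 1 is the first nucleotide of the transcript. It corresponds to nucleotides 2265 to 3396 of 25S rRNA and lies in *RDN25-2*, the 25S exon of *RDN37-2*, on the minus strand at chrXII:460923-462054 in assembly R64. The *hmo1Δ* strain carries *hmo1Δ::URA4* and was set against a WT strain. In both strains the Pol I subunit Rpa135 carries the histidine and HA tags used for purification, and both were grown in YEPD at 30 °C. There were 3 *hmo1Δ* replicates, each from its own culture of 1 deletion strain. The WT libraries were made for another series of the same laboratory, so strain and series cannot be told apart. The values cover the 35S gene alone, so the loss of *HMO1* could not be checked in them. WT is represented by the authors' median over their libraries, printed with no error of its own, and no test between the strains was made.

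Pol I transcribes the 35S precursor, from which 18S, 5.8S and 25S rRNA are cut. Hmo1 is a high mobility group box protein that coats actively transcribed rDNA. NET-seq maps the 3′ ends of RNA bound to the polymerase, so a high value marks a position where many ends were found. The downstream part of 25S rRNA forms the core of the large ribosomal subunit around the peptidyl transferase centre, and close to its 3′ end it carries the sarcin-ricin loop, which translation factors contact. Mature rRNA is also abundant in cells, and fragments of it carry 3′ ends that NET-seq cannot tell from nascent ends. The authors report that they had found mature rRNA in Pol I NET-seq libraries before. For that reason they turned to the spacers to follow nascent RNA alone. The stretch described here lies wholly within mature 25S. The share of ends from mature rRNA in these values was not measured.

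Occupancy is given in RPM, the reads at a position scaled by the authors to a total of 1000000 over the gene up to its terminator. From the step between low values, 1 read was worth 0.270, 0.504 and 0.356 RPM in replicates 1, 2 and 3. The stretch held 796172.5, 411825 and 617192 reads in the same order, with a value at 1 position of replicate 1 that was no whole number of reads. A median position held 534.5, 276 and 401.5 reads, a counting error of 4.33%, 6.02% and 4.99%. The median coefficient of variation over the replicates was 9.30%.

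The stretches below end at or surround the positions on which the results turn. Each runs 5′ to 3′ as RNA, from the deposited table, and the capital letter marks the position itself, the last nucleotide of the mapped RNA. First come the 5 positions with the highest *hmo1Δ* median.
Position 6646 (chrXII:460923-460939, minus strand): uuuguugucugauuuGu
Position 6645 (chrXII:460923-460940, minus strand): cuuuguugucugauuUgu
Position 5860 (chrXII:461705-461725, minus strand): cauugucagguggggAguuug
Position 6318 (chrXII:461247-461267, minus strand): gguuuuugcggcuguCugauc
Position 6029 (chrXII:461536-461556, minus strand): uccuuuagucccucgGaauuu
The next 6 are positions where *hmo1Δ* was well above WT.
Position 5780 (chrXII:461785-461805, minus strand): uauucaaugaagcggAgcugg
Position 6091 (chrXII:461474-461494, minus strand): cuuguggcagucaagCguuca
Position 5827 (chrXII:461738-461758, minus strand): aaggucccauucgggGcugau
Position 6499 (chrXII:461066-461086, minus strand): cacuuggcggaaaggCcuugg
Position 6044 (chrXII:461521-461541, minus strand): gaauuugaggcuagaGgugcc
Position 5531 (chrXII:462034-462054, minus strand): cucuuaagguagccaAaugcc
The last 2 are positions where *hmo1Δ* was well below WT.
Position 6434 (chrXII:461131-461151, minus strand): auauagauggauacgAauaag
Position 6623 (chrXII:460942-460962, minus strand): uuacgaucugcugagAuuaag

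The stretch as a whole held nearly as much occupancy in *hmo1Δ* as in WT, with a different distribution inside it. Its summed occupancy was 21.5%, 20.7% and 21.9% of the 35S gene in *hmo1Δ* replicates 1, 2 and 3, against 22.04% in WT. The mean was 21.4% ± 0.608 (SD, n = 3), and each replicate lay below WT. The log2 ratio of the sums was -0.04 ± 0.04 (SD, n = 3), a difference about as large as the spread between replicates. Without the last 10 positions of the stretch it was -0.02 ± 0.04 (SD, n = 3). The median over positions was 142 ± 2.75 RPM in *hmo1Δ* (SD, n = 3) against 134 RPM in WT, while the median log2 ratio of single positions was 0.0029, -0.04 and 0.0068 in replicates 1, 2 and 3. Of the 1131 positions with a value above 0, all 3 *hmo1Δ* replicates lay above the WT median at 432 (38.2%) and all 3 lay below it at 454 (40.1%). Over the 6844 such positions of the 35S gene these shares were 44.2% above and 37.2% below. At the remaining 245 positions the replicates fell on both sides of WT or met it.

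**Figure D1:**
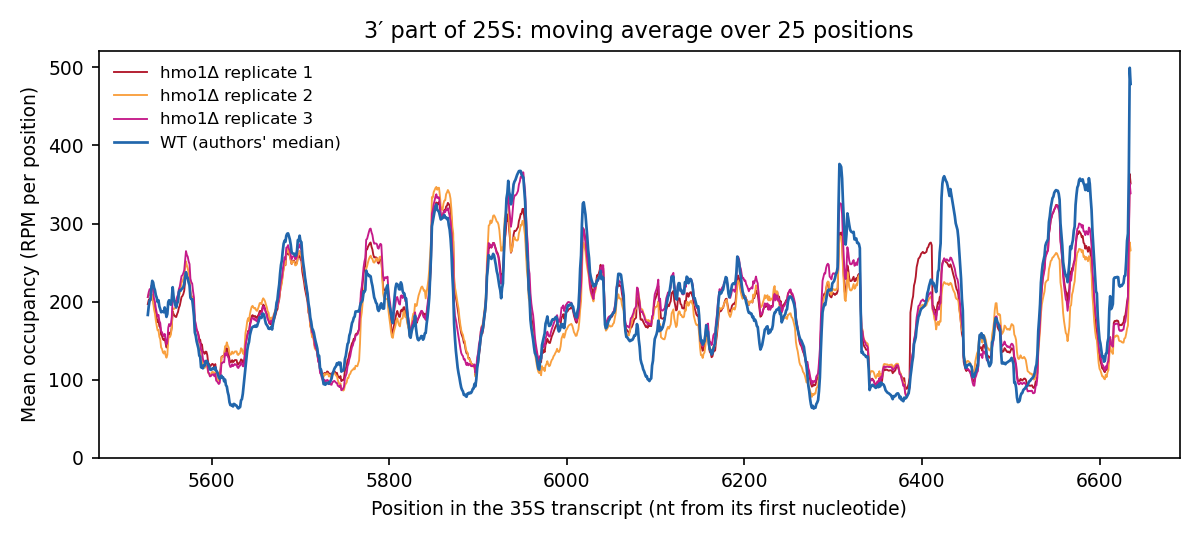
Moving average of occupancy over 25 positions (RPM per position, vertical axis) along the 35S transcript (horizontal axis) for each *hmo1Δ* replicate and the authors' WT median. The lines share most maxima and minima, and WT reaches further up and down than *hmo1Δ* at several of them.

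The profile was a row of sharp peaks on a low floor. A peak was taken as a position at least 3 times the median of the stretch and the highest within 5 positions on either side. The *hmo1Δ* median had 31 peaks and the WT median had 42. Each strain had its own limit, 430 RPM in *hmo1Δ* and 401 RPM in WT. At 2 times the median the counts were 60 in *hmo1Δ* and 59 in WT, so the lower *hmo1Δ* count depends on the limit. Of the *hmo1Δ* peaks, 23 (74.2%) had a WT peak within 2 positions, which is 54.8% of the WT peaks. Single *hmo1Δ* replicates had 29, 34 and 36 peaks. Pairs of *hmo1Δ* replicates shared 73.5% to 93.1% of their peaks. Against WT, single replicates shared 70.6% to 77.8% of their own peaks and 52.4% to 66.7% of the WT peaks. An adenine stood at 17 of the 31 *hmo1Δ* peaks and at 17 of the 42 WT peaks. Cytosine was at 4 of the *hmo1Δ* peaks and at 13 of the WT peaks. Over the stretch, adenine made up 25.9% of positions and cytosine 20.1%. Bases were not counted at peaks of other limits, so whether the cytosine counts depend on the limit was not tested.

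By the *hmo1Δ* median, the highest position away from the 3′ end of 25S was 5860, an adenine after a run of 4 guanines. It had 1370, 1457 and 1410 RPM in *hmo1Δ* against 1039 RPM in WT. All replicates stood above WT, at a log2 ratio of 0.44 ± 0.04 (SD, n = 3), and the position ranked 3rd by the *hmo1Δ* median and 9th by WT. Position 6318, a cytosine, had 1253, 1112 and 1425 RPM in *hmo1Δ* against 2087 RPM in WT. It ranked 4th in *hmo1Δ* and 2nd in WT, with a log2 ratio of -0.73 ± 0.18 (SD, n = 3). Its neighbour 6319 had 915, 821 and 1012 RPM in *hmo1Δ* against 1464 RPM in WT, and so the 2 positions were lower together. Position 6029 had 1008, 1058 and 1080 RPM in *hmo1Δ* against 1087 RPM in WT. All replicates were below WT there, and the mean log2 ratio of -0.05 ± 0.05 (SD, n = 3) was about as large as its spread.

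Position 5780 had the largest gain in mean RPM apart from position 6399. It had 677, 871 and 731 RPM in *hmo1Δ* against 215 RPM in WT, a 3.54-fold level and a log2 ratio of 1.81 ± 0.19 (SD, n = 3). The guanine before it, position 5779, had 448, 553 and 554 RPM in *hmo1Δ* against 197 RPM in WT. Position 5780 ranked 16th in *hmo1Δ*, where it was a peak, and 338th in WT, where no peak lay within 2 positions. Position 6091 had 856, 832 and 797 RPM in *hmo1Δ* against 420 RPM in WT, a 1.97-fold level. It was a peak in both strains.

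The largest gain in mean RPM was at position 6399 and rested on 1 library. It had 2108, 451 and 580 RPM in *hmo1Δ* replicates 1, 2 and 3, against 357 RPM in WT. Replicate 1 was 3.64 times the next replicate, the widest such gap of the stretch, while the next widest, at position 6501, was 1.54 times. Without replicate 1, the log2 ratio of position 6399 was 0.52 in place of 1.20.

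The 5 largest gains by log2 ratio were taken among positions of 50 RPM or more in either strain, with all replicates above WT. All 5 passed that limit through *hmo1Δ* alone, so their low WT levels follow from the way they were chosen. They had between 59.1 and 230.3 RPM in single *hmo1Δ* replicates and between 11.8 and 37.8 RPM in WT. Position 6095 had 61.3, 70.05 and 59.1 RPM in *hmo1Δ* against 11.8 RPM in WT, a log2 ratio of 2.33 ± 0.13 (SD, n = 3). With the authors' WT mean in place of the median, tried after the data had been seen and not kept among the values given here, the ratio of position 6095 was lower, so that this gain depends on how WT is summarised. Position 5827, which ends a run of 4 guanines, had 123, 162 and 107 RPM in *hmo1Δ* against 25.3 RPM in WT. Its log2 ratio was 2.30 ± 0.30 (SD, n = 3). Position 6499 had 154, 230.3 and 172 RPM in *hmo1Δ* against 37.8 RPM in WT, a log2 ratio of 2.24 ± 0.30. Position 6044 had 125, 129 and 126 RPM in *hmo1Δ* against 27.95 RPM in WT, a log2 ratio of 2.14 ± 0.02. Position 5531 had 67.8, 62.99 and 59.8 RPM in *hmo1Δ* against 13.2 RPM in WT, a log2 ratio of 2.18 ± 0.09. The fewest reads behind any of these *hmo1Δ* values were the 125 at position 5531 in replicate 2, a counting error of 8.94%. The reads behind the low WT values were not recovered, so the counting error of the ratios is not known.

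The losses largest in RPM lay at high positions. Position 6434 had 889, 922 and 1015 RPM in *hmo1Δ* against 1570 RPM in WT, a log2 ratio of -0.74 ± 0.10 (SD, n = 3). Position 6623 had 625, 599 and 661 RPM in *hmo1Δ* against 1143 RPM in WT, a log2 ratio of -0.86 ± 0.07. In both cases the replicates formed a narrow group well under the WT median. With the authors' WT mean in its place, tried after the data had been seen, the ratio of position 6623 moved by more than 1 SD. Away from the last 10 positions, the lowest log2 ratios among positions of 50 RPM or more with all replicates below WT were at 6558, with 163, 89.7 and 146 RPM in *hmo1Δ* against 254 RPM in WT, at 5713, with 142, 125 and 137 RPM against 264 RPM, and at 6313, with 54.3, 55.9 and 64.4 RPM against 114 RPM. At 6558 replicate 2 stood apart from the others.

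Counted over the stretch with a fold of 1.5 in each replicate, 149 positions (13.2%) were above WT and 40 (3.54%) were below it. Over the 35S gene the shares were 21.0% above and 7.47% below, so both kinds were less frequent here than over the gene as a whole. Leaving out replicate 3 gave 63 positions below. The middle part of 25S had 178 positions (15.7%) above and 38 (3.36%) below, and its 5′ part had 169 (14.9%) above and 50 (4.42%) below. No test was made of these shares, since neighbouring positions are not independent.

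**Figure D2:**
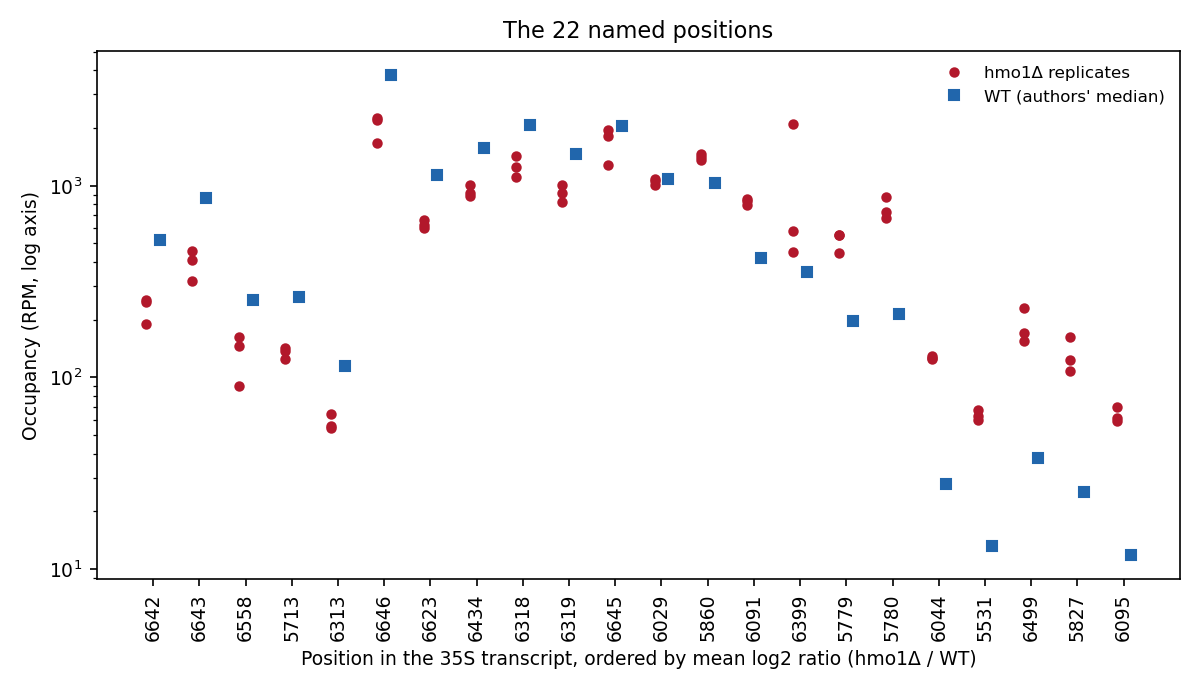
Occupancy (RPM, log axis) of the 3 *hmo1Δ* replicates and the authors' WT median at the 22 named positions, ordered by mean log2 ratio. All replicates lie below WT at 12 positions and above it at 10. This follows largely from the choice, since gains and losses were taken among positions with all replicates on that side. At position 6399 a single *hmo1Δ* point sits far above the others.

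The 3′ end of 25S carried the highest values. Position 6646 had 2258.2, 1683 and 2215 RPM in *hmo1Δ* against 3797 RPM in WT. It was the highest position of the stretch in both strains, and its log2 ratio was -0.90 ± 0.24 (SD, n = 3). Position 6645 had 1967, 1285 and 1830 RPM in *hmo1Δ* against 2057 RPM in WT, where replicates 1 and 3 were close to WT and replicate 2 was below. Position 6643 had 409, 320 and 457 RPM in *hmo1Δ* against 864 RPM in WT, and position 6642 had 248, 190 and 255 RPM against 521 RPM. The last nucleotide of 25S, position 6647, is listed at 0 in each replicate and in WT, as are the next 2 positions in the spacer. Positions 2499 to 2501 at the 3′ end of 18S and 3018 to 3020 at that of 5.8S are also listed at 0. Whether these zeros are counts or positions left out of the deposited values was not tested. The last 10 positions together held 2.48% ± 0.381 of the stretch in *hmo1Δ* (SD, n = 3) and 3.86% in WT, with a log2 ratio of -0.69 ± 0.27. These positions are also where 3′ ends of finished 25S rRNA would lie, and their part in the values was not tested.

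Divided into 23 consecutive windows of 50 positions, the last one of 32, the stretch had 8 windows (34.8%) with all *hmo1Δ* replicates above WT, 11 (47.8%) with all below and 4 with replicates on both sides. Over 136 such windows of the 35S gene, 50% were above and 37.5% below. The 3 largest gains were at positions 5616 to 5665, with 154, 165 and 150 RPM per position in *hmo1Δ* against 121 RPM in WT, at 5866 to 5915, with 168, 176 and 159 RPM against 131 RPM, and at 6066 to 6115, with 200, 196 and 211 RPM against 167 RPM. Their log2 ratios were 0.37 ± 0.07, 0.35 ± 0.07 and 0.27 ± 0.06 (SD, n = 3). The first pair ranked 22nd and 20th of the 23 windows in WT, and guanine made up 38% and 36% of their bases and 28% of the bases of the window from 6066 to 6115, against 26.3% in the stretch. The window from 5816 to 5865 also had 38% guanine, with a log2 ratio of 0.06 ± 0.04.

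The 3 largest losses lay within the last 5 windows. Positions 6416 to 6465 had 181, 173 and 183 RPM per position in *hmo1Δ* against 236 RPM in WT, a log2 ratio of -0.40 ± 0.04 (SD, n = 3). Positions 6566 to 6615 had 202, 186 and 209 RPM against 243 RPM, a log2 ratio of -0.29 ± 0.09. Positions 6616 to 6647 had 310, 240 and 300 RPM in *hmo1Δ* against 429 RPM in WT, a log2 ratio of -0.61 ± 0.20, with replicate 2 the lowest. This last window was the highest of the stretch in both strains. Without its last 10 positions it was still lower in *hmo1Δ*, at 181, 156 and 173 RPM against 237 RPM in WT and a log2 ratio of -0.48 ± 0.11. The replicates stayed below WT there. By the median position of the window in place of the sum, the log2 ratio was -0.20 for 6416 to 6465 and -0.37 for 6616 to 6647. The window from 6366 to 6415 had a log2 ratio of 0.24 ± 0.17, which became 0.12 ± 0.01 without position 6399.

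**Figure D3:**
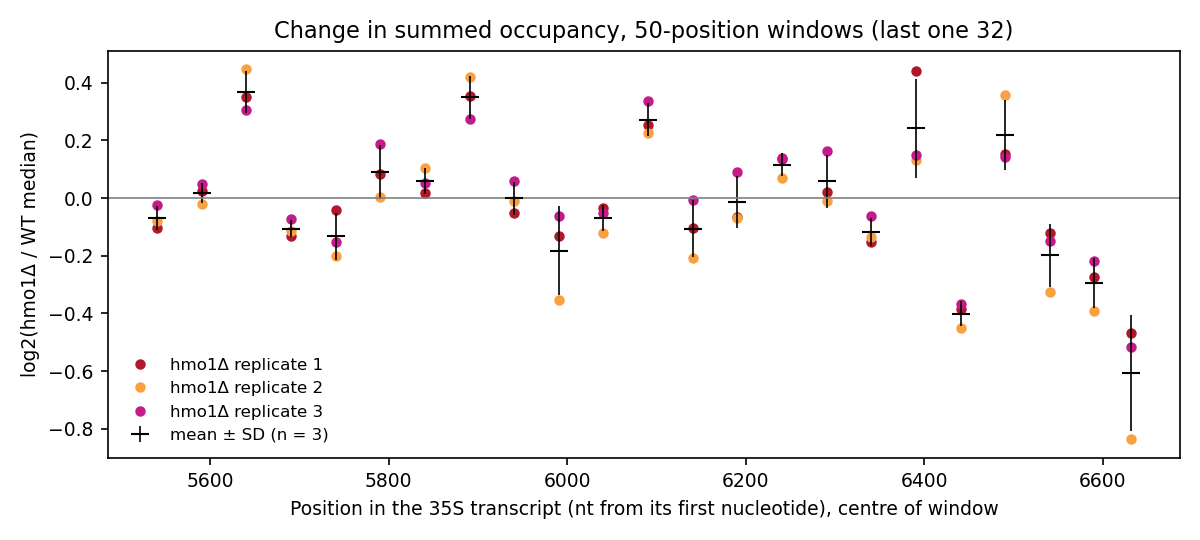
Log2 ratio (vertical axis) of summed occupancy in a *hmo1Δ* replicate to that in the WT median of the authors, in 50-position windows placed by their centre on the 35S transcript (horizontal axis). Points are replicates, and black marks are the mean ± SD (n = 3). The lowest mean is that of the last window, at -0.61.

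The other windows with the highest sums were close to WT in their sums. Positions 5916 to 5965 had 266, 274 and 287 RPM per position in *hmo1Δ* against 276 RPM in WT, with replicates on both sides. Positions 5816 to 5865, which hold position 5860, had 250, 266 and 256 RPM in *hmo1Δ* against 247 RPM in WT. These windows ranked 2nd and 3rd in *hmo1Δ*. By their median position they were at log2 ratios of 0.15 and 0.26. The lowest windows in *hmo1Δ* were 5716 to 5765, with 116, 104.2 and 108 RPM against 120 RPM in WT, 6466 to 6515, with 135, 155 and 134 RPM against 121 RPM, and 6266 to 6315, with 151, 148 and 167 RPM against 149 RPM. These windows ranked 23rd, 21st and 18th in WT, and they differed in the direction of the change. By their median position all 3 were at positive log2 ratios, of 0.10, 0.53 and 0.22.

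At finer scale, the 3 lowest stretches of 25 positions in *hmo1Δ* differed from each other in their relation to WT. Positions 6371 to 6395 had 88.5, 78.9 and 79.6 RPM per position in *hmo1Δ* against 78.3 RPM in WT, where each replicate was above WT but the mean log2 ratio of 0.07 ± 0.09 (SD, n = 3) was within its spread. Positions 6514 to 6538 had 89.4, 100.2 and 82.8 RPM in *hmo1Δ* against 105 RPM in WT, with all replicates below. Positions 6264 to 6288 had 91.1, 78.1 and 94.4 RPM in *hmo1Δ* against 64.05 RPM in WT, with all replicates above and a log2 ratio of 0.45 ± 0.15.

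The last of these troughs contains the sarcin-ricin loop, the rRNA element cut by the ribotoxin sarcin and depurinated by ricin. It was located by the motif UACGAGA in the transcript, which occurs at 2 of 6852 start positions of the 35S transcript, once here and once in 18S. The match here covers positions 6274 to 6280, and includes adenine 3027 of 25S, the ricin target, at position 6278. The loop is shown because the change was uneven within it, with the motif in capitals.
Sarcin-ricin loop (chrXII:461282-461304, minus strand): gaacuuagUACGAGAggaacagu
Over the motif, *hmo1Δ* had 80.2, 60.2 and 83.5 RPM per position against 67.2 RPM in WT, with replicates on both sides. Adenine 3027 had 139, 105 and 128 RPM in *hmo1Δ* against 153 RPM in WT. The adenine 5 positions after it, position 6283, had 409, 393 and 441 RPM in *hmo1Δ* against 105 RPM in WT, a 3.93-fold level. All replicates were above WT at each of the 6 positions from 6280 to 6285, so that the 3′ side of the loop was higher in *hmo1Δ* while most of the motif itself was not.

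Some of the positions with large gains are nucleotides that are modified in mature 25S rRNA. Yeast 25S carries 2′-O-methyl groups placed by box C/D snoRNPs or by the methyltransferase Spb1, and pseudouridines placed by box H/ACA snoRNPs. The lists used here come from general knowledge of yeast rRNA and were drawn up after the values had been seen. The base in the deposited table matched at all 68 listed sites of 25S, of which 20 methylated nucleotides and 13 pseudouridines fall in the 3′ part. Among the methylated nucleotides, all replicates were above WT at 14 (70%), below at 3 and on both sides at 3, against 38.2% above over the stretch and 44.2% over the gene. The median log2 ratio over the 20 sites was 0.34, 0.44 and 0.27 in replicates 1, 2 and 3, against 0.00, -0.04 and 0.01 over the positions of the stretch. Positions 5531 and 6044, described above, are methylated. Position 5532, the methylated adenine next to 5531, had 146, 165 and 125 RPM in *hmo1Δ* against 34.6 RPM in WT. Position 6172, a uridine methylated beside the Spb1 site, had 60.5, 67.5 and 43.4 RPM in *hmo1Δ* against 18.3 RPM in WT, and position 6210, a cytidine, had 77.3, 88.7 and 59.1 RPM against 21.8 RPM.

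Many of these nucleotides were local low points. A methylated nucleotide lay below both of its neighbours at 11 of 20 sites by the *hmo1Δ* median and at 14 by the WT median, where over the stretch the share was 31.5% in *hmo1Δ* and 30.9% in WT. The median log2 ratio of a methylated site to the mean of its neighbours was -0.74 ± 0.09 in *hmo1Δ* (SD, n = 3) and -1.01 in WT. All replicates had a higher ratio to their neighbours than WT at 14 of the 20 sites. At position 5532, among them, *hmo1Δ* stood above its neighbours, at log2 ratios of 0.56, 0.82 and 0.41, and WT below, at -0.85. Positions 5891, 6042 and 6173 lay lower relative to their neighbours than WT in each replicate. Positions 5646, 5975 and 5980 had a lower level than WT in each replicate.

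Pseudouridines gave similar values. All replicates were above WT at 9 of 13 sites (69.2%), below at 1 and on both sides at 3, against 38.2% above over the stretch and 44.2% over the gene. The median site lay at a log2 ratio of -1.15 ± 0.21 to its neighbours in *hmo1Δ* (SD, n = 3) and -1.54 in WT. Position 5565 had 148, 156 and 137 RPM in *hmo1Δ* against 73.1 RPM in WT, and position 6077 had 130.0, 141 and 148 RPM against 69.3 RPM. Pseudouridines too were low, with a median of 69.3 RPM in WT against 134 RPM over the stretch, and were not compared with other positions of the same level. How far mature or processed rRNA contributed at these sites was not measured. The sites are few, share flanks where they adjoin, and were not tested as a set.

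**Figure D4:**
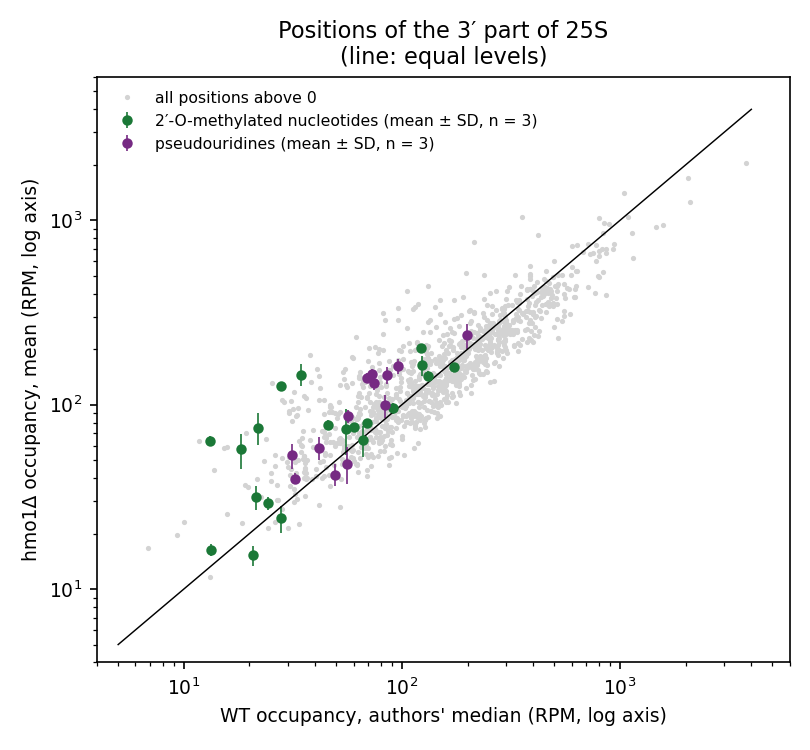
Mean *hmo1Δ* occupancy (vertical axis) against the authors' WT median (horizontal axis), both in RPM on log axes, for the positions of the 3′ part of 25S in grey, the 20 methylated nucleotides in green and the 13 pseudouridines in purple, with bars for SD (n = 3). Most coloured points lie above the line of equal levels and at low WT values.

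The range between low and high positions was narrower in *hmo1Δ*. The 5th percentile of positions was 45.7, 43.3 and 43.1 RPM in *hmo1Δ* against 31.95 RPM in WT, and the 95th percentile was 446, 450.3 and 487 RPM against 514 RPM. Low positions were therefore higher, and high positions lower, in each replicate. The ratio of these percentiles was 9.76, 10.4 and 11.3 in *hmo1Δ*, a mean of 10.5 ± 0.784 (SD, n = 3), against 16.1 in WT. The SD of log2 RPM was 1.07 ± 0.03 in *hmo1Δ* and 1.24 in WT. The middle part and the 5′ part of 25S went the same way, with a percentile ratio of 11.998 ± 1.13 in *hmo1Δ* against 17.1 in WT and of 13.5 ± 0.969 against 18.4. This measure was chosen after the values had been seen.

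**Figure D5:**
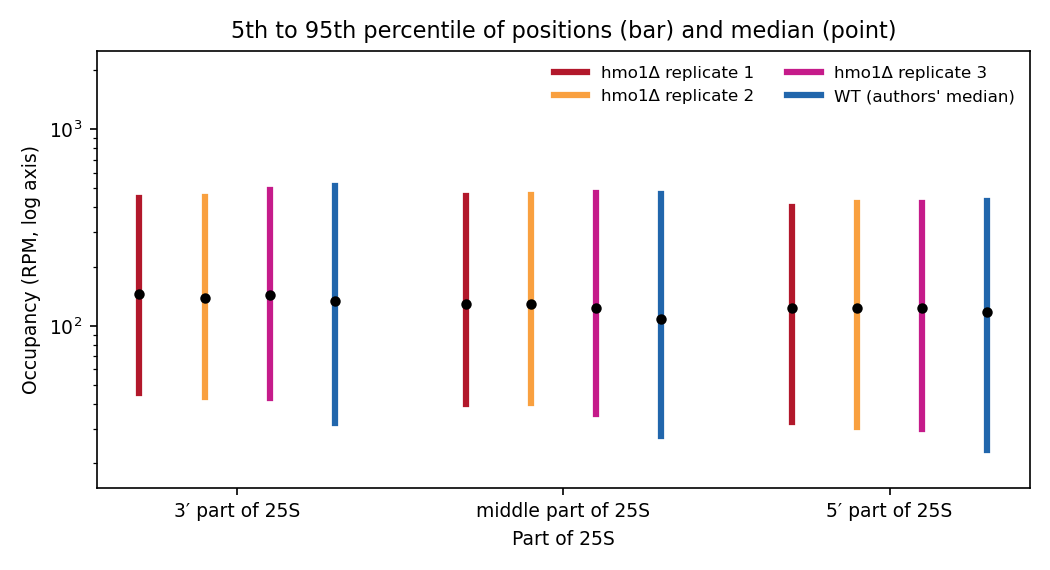
The 5th to 95th percentile (bar) and median (point) of occupancy over positions, in RPM on a log axis, for each *hmo1Δ* replicate and the authors' WT median in the parts of 25S. In each part the WT bar extends further down than the *hmo1Δ* bars.

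The same was seen when positions were divided into 5 classes of nearly equal size by the average of the *hmo1Δ* and WT medians. In the lowest class, all replicates were above WT at 121 positions and below at 52 of 227, and the median log2 ratio was 0.21 ± 0.06 (SD, n = 3). In the highest class, all were above at 45 and below at 141 of 227, and the median log2 ratio was -0.20 ± 0.12. The classes in between had medians of 0.09, -0.02 and -0.05. Over the whole stretch, all replicates were above WT at 38.2% of positions and below at 40.1%, and over the gene at 44.2% and 37.2%.

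High positions had a common sequence setting in both strains. Among the 28 highest positions (2.5%), guanine was the preceding base at 64.3% by the *hmo1Δ* median and at 50% by the WT median, against 26.3% over the stretch. Adenine stood at the position itself in 50% of the *hmo1Δ* set, in 42.9% of the WT set and at 25.9% over the stretch. The sets shared 22 of the 28 positions, while sets from single *hmo1Δ* replicates shared 24 to 26 with each other and 19 to 21 with WT. Guanine made up 36.8% of the 10 bases ending at the *hmo1Δ* set and 35% at the WT set, against 26.3% over the stretch. Uracil in the 10 bases before those made up 32.1% and 31.8%, against 27.2%. The order of guanine-rich behind uracil-rich sequence was taken from the study, which drew it from these libraries. The window of 10 bases was set for this description.

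The change between strains went with guanine content. At the 108 positions that end 10 bases with 5 or more guanines, the median log2 ratio was 0.21 ± 0.06 (SD, n = 3), with all replicates above WT at 57 (52.8%) and below at 31 (28.7%). At the 770 positions with 2 to 4 guanines it was 0.02 ± 0.02, with 317 (41.2%) above and 279 (36.2%) below. At the 254 positions with 0 or 1 guanine it was -0.19 ± 0.14, with 58 (22.8%) above and 144 (56.7%) below, and replicate 2 gave the lowest value at -0.35. The shares over the stretch were 38.2% above and 40.1% below, and over the gene 44.2% and 37.2%. Across 1131 positions, the correlation of log2 ratio with guanine content was 0.197, 0.330 and 0.247 in replicates 1, 2 and 3, given as a description because neighbouring positions overlap in sequence. In the middle part and the 5′ part of 25S the coefficient for guanine had the same sign, at 0.223 ± 0.043 and 0.188 ± 0.040 (SD, n = 3). For uracil in the 10 bases before, it was in the 3′ part -0.129, -0.185 and -0.118. In the middle part and the 5′ part the coefficient for uracil was positive, at 0.092 ± 0.027 and 0.074 ± 0.025 (SD, n = 3). The positions there share their libraries with those of the 3′ part.

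Set beside the rest of 25S, the 3′ part was the part whose summed occupancy was lower than WT. Its log2 ratio was -0.03, -0.09 and -0.0037 in replicates 1, 2 and 3, against 0.04, 0.07 and 0.03 in the middle part and 0.03, 0.05 and 0.05 in the 5′ part. The difference from the middle part was -0.09 ± 0.06 and from the 5′ part -0.08 ± 0.04 (SD, n = 3), negative in each replicate. An exact sign-flip permutation test over replicates, 2-sided, gave p = 0.25 for both comparisons, the smallest p that 3 replicates allow, so these differences could not pass a threshold of 0.05. Part of the lower sum lay in the last 10 positions of 25S. Without them the log2 ratio of the 3′ part was -0.02 ± 0.04 (SD, n = 3), within its spread. The difference from the middle part was then -0.07 ± 0.06 (SD, n = 3).

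The replicates were close to each other in rank. Over its 1132 positions, replicates 1 and 2 of *hmo1Δ* gave a Spearman coefficient of 0.971, replicates 1 and 3 one of 0.986, and replicates 2 and 3 one of 0.967. With the WT median it was 0.887, 0.831 and 0.894 for replicates 1, 2 and 3, below each coefficient between replicates. Replicate 2, the shallowest library, was the lowest of the 3 at 522 positions, and the others were lowest at 287 and 322. Chi-square per degree of freedom between pairs of replicates was 6.35 to 7.85 here, so they differed by more than counting noise.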

How the data were processed

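Pol I NET-seq was made from 3 *hmo1Δ* cultures. The authors removed duplicate reads by UMI with fqtrim, trimmed with cutadapt 3.4, mapped reads to assembly R64 (STAR 2.7.1a) and took the coverage per position (BEDTools 2.28.0). How reads were assigned between rDNA copies is not given in the sources used here. The values deposited by the authors are RPM per position. The WT median is a column pooled by the authors. Another 3 columns, of WT replicates from the other series, were not used, so the spread of WT was not analysed here. The columns of the authors' own comparisons (mean change, ratio and p-value) were not used either.

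The 25S positions were divided into 3 equal parts. Log2 ratios of single positions used a pseudocount of 1 RPM, and those of windows and sums used none. A position was called above or below WT when all 3 replicates were on that side, also with a fold of 1.5. Reads were recovered by dividing by the step between low values, and 99.9% of values or more came out whole within 0.05 reads. A value of 0, where it is a count, allows up to 3 reads, or 0.811, 1.51 and 1.07 RPM. These floors and the counting errors cover counting error only, and ± values are SDs over replicates. Named were the 5 highest positions in each strain, and the 5 largest gains and losses by RPM and, from 50 RPM, by log2 ratio. For windows, the 3 highest, lowest, largest gains and largest losses were named, and the 3 lowest stretches of 25 positions. The smallest p of an exact sign-flip test over 3 replicates is 0.25. Members and lists were chosen with earlier results of these data known. Positions 5532, 5565, 5646, 5891, 5975, 5980, 6042, 6077, 6172, 6173 and 6210 were chosen as examples after their values were seen, as were 6283 and 6501. Gene names and limits were matched to RefSeq. Python 3.11.15, numpy 2.4.6, pandas 2.3.3, scipy 1.17.1 and matplotlib 3.10.9 were used, and the scripts were tested on simulated profiles.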

Additional observations from a re-analysis of the deposited data

How the results depend on the processing

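No paired analysis was possible because the labels give replicate numbers for a single group. With other scalings, a filter at 20 RPM or a pseudocount of 5 RPM in the calls, the counts of positions above and below WT stayed within 1.5 times. The 10th and 90th percentiles and the alternatives on methylated sites and sequence context were chosen after seeing the data. Peaks at 2 times the median numbered 60 in *hmo1Δ* and 59 in WT with 46 shared, and at 5 times 15 in *hmo1Δ*, 18 in WT and 11 shared. Windows of 25 gave 35 windows with all replicates on one side and windows of 100 gave 7, against 19 with windows of 50. Without the highest 1% of its positions the stretch held 19.99% of the *hmo1Δ* total. The mean Spearman coefficient between replicates was 0.963 with sums of 10 positions. The percentile ratio in *hmo1Δ* was 6.62 with the 10th and 90th percentiles, against 9.17 in WT. Guanine content at the 56 highest positions was 35.5%. By its median position, the window from 5716 to 5765 reversed to a log2 ratio of 0.10, and 8 of the other named windows moved by more than 1 SD, among them 5616 to 5665 to 0.54 and 6066 to 6115 to 0.33. Leaving out each replicate in turn gave 47 to 63 positions below WT by 1.5 times, where the highest count was without replicate 3. It gave a Spearman coefficient between replicates of 0.967 to 0.986 and a guanine content of 35.7% to 36.4%. The 22 named positions stayed on their side of WT with other scalings. Leaving out a replicate or changing the pseudocount could not move them, since all their replicates already lay on the same side. With the authors' WT mean, an alternative tried after seeing the data and not kept among the values given here, 1 of the named positions did not stay on its side. The ratios of positions 6095, 6091 and 6399 were lower, that of 6399 within its SD. Those of positions 6313 and 6623 moved by more than 1 SD.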

Other observations

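The base after a position also went with the change. At the 293 positions followed by adenine, the median log2 ratio was -0.12, -0.22 and -0.07 in *hmo1Δ* replicates 1, 2 and 3, with all replicates above WT at 75 and below at 153. At the 227 positions followed by cytosine it was 0.14, 0.10 and 0.08, with 106 above and 68 below. Positions followed by guanine or uracil lay at 0.01 ± 0.03 and 0.02 ± 0.02 (SD, n = 3). Among all positions of the stretch, 38.2% had all replicates above WT and 40.1% had all below. Over the gene these shares were 44.2% and 37.2%. In the middle part of 25S the medians were -0.11 ± 0.04 before adenine and 0.19 ± 0.08 before cytosine, and in the 5′ part -0.10 ± 0.04 and 0.25 ± 0.08 (SD, n = 3). The base at the position itself gave medians between -0.03 and 0.00 in the 3′ part.

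Outside the 3′ part, the other 18 methylated nucleotides of 25S on the list were counted in the same way. All replicates were above WT at 13 (72.2%) and below at 2, against 43.1% above over the positions of the rest of 25S, and the median site lay at a log2 ratio of -1.13 ± 0.04 to its neighbours in *hmo1Δ* (SD, n = 3) and -1.46 in WT. Among the other 17 pseudouridines, 9 (52.9%) were above and 5 below. These positions come from the same libraries and are not independent of those of the 3′ part. They were not compared with unmodified positions of the same level either.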
